A study of Rattus norvegicus with 36 samples.

Results

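The genes described here are 10 lysosomal peptidases of rat alveolar macrophages, the phagocytes that clear inhaled particles from the air spaces of the lung. They are the cathepsins Ctsa, Ctsb, Ctsc, Ctsd, Ctsh, Ctsk, Ctsl, Ctss and Ctsz and the related peptidase legumain (Lgmn), and they were taken by symbol from the 23487 genes of an expected-count table. All 10 passed the low-count filter that left 14606 genes for testing. Their counts in single libraries ran from 3004, for Ctsc, upwards, so counting error was small beside the spread between replicates. The libraries were made from primary alveolar macrophages of male F344 rats, an inbred strain; age is not given in the sources used. The cells were kept in culture for 5 days and exposed for 4 days to G1-1, G3-1 or Bayertitan, all titanium dioxide, or to Printex90, a carbon black. Each of the 4 particles came with its own control, non-overload and overload condition, which gave 12 groups of 3 biological replicates and 36 libraries. The sources used here do not give the amount of particle behind each condition. They also do not say whether the replicates of a group were separate animals or separate cultures, so each p-value reflects only how far these samples varied, and that variation may be technical.

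Cathepsins are made as inactive proenzymes, carried to the lysosome mostly by mannose 6-phosphate receptors, and matured there at acid pH. Ctsd is an aspartic endopeptidase. Ctsb, Ctsl, Ctss and Ctsk are cysteine peptidases that cut proteins internally, Ctsb also removing dipeptides from the end of a chain. Ctsc, Ctsh and Ctsz trim the ends of peptides, Ctsa is a serine carboxypeptidase, and Lgmn cuts after asparagine and takes part in the maturation of several cathepsins. In macrophages these enzymes break down what phagocytosis delivers, and in antigen-presenting cells several of them, above all Ctss, process the invariant chain of MHC class II.

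Levels are in CPM, each gene's count scaled to a common library total with trimmed-mean-of-M-values factors. They were not divided by gene length, so a level is compared between libraries and never between genes. Total counts ran from 26096983 to 43205421 per library. Of 10 macrophage markers, Lyz2 lay between 11242 and 17675 CPM, Mrc1 between 917 and 1233 CPM and Itgax between 734 and 1095 CPM, whereas Marco, a scavenger receptor of alveolar macrophages, did not exceed 1.09 CPM in any library. Col3a1, a collagen gene of fibroblasts, was over 10 CPM in 8 libraries, at 13.6 to 109.5 CPM. They were replicates 1 and 2 of both G3-1 control and G3-1 overload, replicate 2 of G1-1 overload, replicate 2 of both Printex90 control and Printex90 non-overload, and replicate 1 of Bayertitan non-overload. In the median over those 8 libraries, all 10 peptidase genes lay below their group means, with deviations on the log2 scale of -0.02 (Ctsh) to -0.09 (Lgmn), against 0.01 to 0.03 in the other 28. Results were refitted without those libraries and with a fibroblast marker level as a covariate.

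Averaged over the 4 particles, overload changed 6 of the 10 genes and changed them in both directions. Ctsd rose most, by 0.36 on the log2 scale (SE 0.0314, adjusted p = 1.62e-09; all adjusted p are edgeR quasi-likelihood values, Benjamini-Hochberg corrected over 14606 genes), and Ctsb rose by 0.26 (SE 0.0353, adjusted p = 1.55e-06). Ctsz and Ctsa rose by 0.17 and 0.15 (adjusted p = 0.00189 and 0.00923). Ctsc fell by 0.29 (SE 0.0446, adjusted p = 1.17e-05) and Ctsh fell by 0.12 (SE 0.0226, adjusted p = 0.000187). Ctsk, Lgmn, Ctss and Ctsl, at 0.07, 0.04, -0.02 and -0.06, did not pass the test. Against the 4 higher and 2 lower members, 14.4% of all tested genes were called higher and 17.5% lower, 31.9% in all. The median over the 10 genes was 0.05, beside -0.02 over all genes. In bulk RNA, fewer cells of a type and less RNA per cell cannot be told apart.

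**Figure D1:**
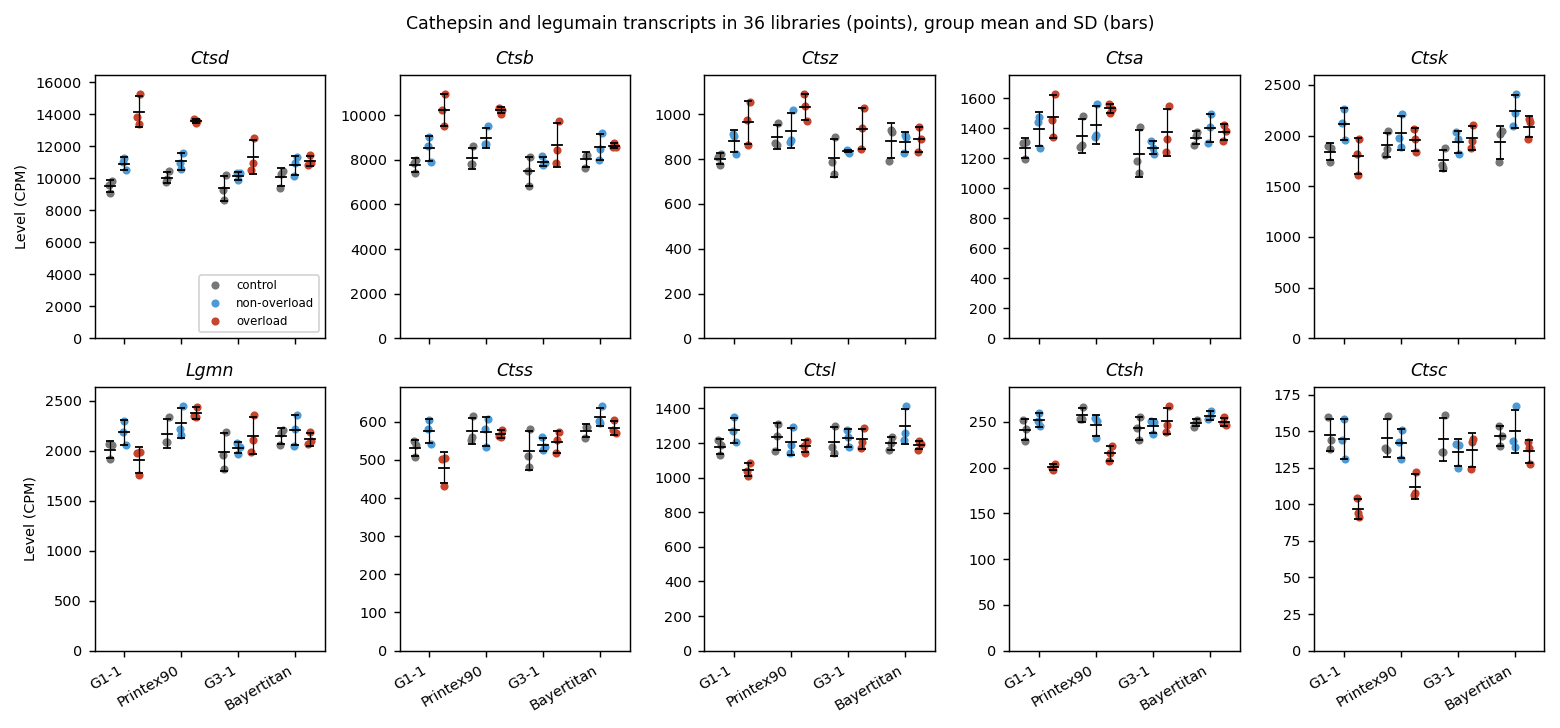
Level in CPM (vertical axes, each from 0) of the 10 genes in each of the 36 libraries (points), with the mean and SD of each group of 3 (bars), by particle and condition. In the Ctsd panel the G1-1 and Printex90 overload libraries sit at 13388 to 15251 CPM, above every other library of those particles, and in the Ctsc panel the same groups sit at 91.4 to 121.8 CPM, below every other library.

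The promoters of the gene that rose most and the gene that fell most are shown because the motifs discussed for lysosomal and for myeloid genes differ between them. Each is printed 5′ to 3′ on the gene's strand, from 250 bases before to 50 bases after the annotated start, from RefSeq's GRCr8 assembly, which is a later build than the one behind the counts. Capitals mark letters that match a searched motif on either strand. The Ctsd promoter is chr1:206968772-206969071 on the minus strand and the Ctsc promoter chr1:151440799-151441098 on the plus strand.
Ctsd: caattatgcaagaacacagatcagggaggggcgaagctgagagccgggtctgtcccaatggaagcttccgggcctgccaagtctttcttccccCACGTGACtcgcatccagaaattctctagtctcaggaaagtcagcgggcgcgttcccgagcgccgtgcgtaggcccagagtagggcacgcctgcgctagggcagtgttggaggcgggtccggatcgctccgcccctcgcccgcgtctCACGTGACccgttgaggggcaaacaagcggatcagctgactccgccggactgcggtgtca
Ctsc: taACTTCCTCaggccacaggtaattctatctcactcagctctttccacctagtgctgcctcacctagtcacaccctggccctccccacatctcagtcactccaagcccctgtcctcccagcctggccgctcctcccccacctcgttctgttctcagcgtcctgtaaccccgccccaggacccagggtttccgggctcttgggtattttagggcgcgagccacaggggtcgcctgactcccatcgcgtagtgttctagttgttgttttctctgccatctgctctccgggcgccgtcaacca
Ctsd holds the E-box CACGTG at both 157 and 10 bases before the start (-157 and -10), each time within CACGTGAC, a form bound by TFEB and its relatives, which regulate many lysosomal genes. Ctsc holds ACTTCCTC at -248, the reverse complement of GAGGAAGT, a site type of PU.1, a transcription factor of macrophages. Promoters were found for 9 of the 10 genes, all but Ctsb, which was therefore not searched. Among these 9, CACGTG and CACGTGAC occurred in Ctsd only, and GAGGAAGT on either strand in Ctsc and in Ctss, at -17 in the latter. Of 33469 promoters of the same length, 6.42% held CACGTG, 1.85% CACGTGAC and 2.42% GAGGAAGT. The motifs were chosen with these sequences and the expression results known, and a match says only that the letters are present.

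Ctsd, the aspartic endopeptidase, rose with overload of 3 of the 4 particles. In the G1-1 libraries it read 9586, 9081 and 9804 CPM in control, 10989, 11267 and 10480 CPM in non-overload and 13845, 13388 and 15251 CPM in overload. The 3 conditions did not overlap and each was higher than the one before. With G1-1 overload the log2 fold change against control was 0.58 (SE 0.0629, adjusted p = 4.74e-08), a 1.49-fold higher level, and against non-overload it was 0.38 (SE 0.0628, adjusted p = 4.39e-05). With Printex90 the libraries read 9738, 9934 and 10436 CPM in control, 10968, 10579 and 11586 CPM in non-overload and 13697, 13421 and 13550 CPM in overload. Again the conditions stood apart, and overload was 0.43 higher than control (SE 0.0629, adjusted p = 2.16e-05) and 0.30 higher than non-overload (SE 0.0628, adjusted p = 0.0063), the latter call lost without non-overload replicate 2 (adjusted p = 0.0608). With G3-1 the values were 9231, 8635 and 10207 CPM in control, 10292, 9871 and 10292 CPM in non-overload and 10485, 10976 and 12498 CPM in overload. Overload lay above both other groups there, and the rise over control was 0.27 (SE 0.0628, adjusted p = 0.0358). This call was lost without control replicate 1 (adjusted p = 0.110), without control replicate 2 (0.185), without overload replicate 3 (0.269) and without the 8 libraries high in Col3a1 (0.369), which leaves 1 library in each of the 2 groups, assumed to vary like the other groups. With Bayertitan the values were 9407, 10262 and 10472 CPM in control, 10154, 10958 and 11292 CPM in non-overload and 10850, 11429 and 10950 CPM in overload. Overload again lay above every control, but by 0.14 only (95% interval 0.01 to 0.27), which did not pass the test (adjusted p = 0.565).

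Non-overload alone raised no member beyond the threshold with any single particle, and 0 of 10 were called in each. Of all genes, 0.459% were called for G1-1 (0.411% higher, 0.0479% lower), 0.205% for Printex90 (0.0479% higher, 0.157% lower), 0% for G3-1 and 0.335% for Bayertitan (0.185% higher, 0.151% lower). Averaged over the 4 particles, 2 of the 10 genes were called, both higher, beside 4.94% of all genes (3.29% higher, 1.64% lower). Ctsd was 0.14 higher (SE 0.0314, adjusted p = 0.007), and Ctsk, a collagen-degrading peptidase best known from osteoclasts, was 0.16 higher (SE 0.0394, adjusted p = 0.0144). Ctsk and Ctsl were the members whose mean was highest in non-overload with 3 of the 4 particles. For Ctsk these were 2113 ± 154 CPM for G1-1, 2026 ± 170 CPM for Printex90 and 2239 ± 160 CPM for Bayertitan (SD, n = 3). Its controls for these were 1841 ± 85.1, 1905 ± 120 and 1933 ± 165 CPM. With G1-1 the overload libraries fell back to 1798 ± 179 CPM, 0.23 below non-overload (SE 0.0788, adjusted p = 0.0309), although the libraries of the 2 groups overlapped. That call was lost without non-overload replicate 1 or 2 (adjusted p = 0.0825 and 0.1744), overload replicate 1 or 2 (0.0572 and 0.2096), or the libraries high in Col3a1 (0.174).

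Ctsb, the cysteine peptidase that also removes dipeptides from the end of a chain, followed Ctsd. The G1-1 libraries read 7862, 7402 and 7999 CPM in control, 8629, 9010 and 7916 CPM in non-overload and 10237, 9510 and 10943 CPM in overload. Only overload stood apart, 0.40 above control (SE 0.0707, adjusted p = 6.92e-05) and 0.26 above non-overload (SE 0.0706, adjusted p = 0.00619). The second of these calls was lost without non-overload replicate 3 (adjusted p = 0.0694). The Printex90 libraries read 7816, 7789 and 8613 CPM in control, 8707, 8704 and 9517 CPM in non-overload and 10321, 10060 and 10247 CPM in overload, with no overlap between any 2 conditions. Overload was 0.34 higher than control (SE 0.0706, adjusted p = 0.00162). With G3-1 and Bayertitan, Ctsb was 0.21 and 0.11 higher, and neither passed the test (adjusted p = 0.195 and 0.842). The G3-1 groups overlapped, at 6816 to 8129 CPM in control and 7835 to 9748 CPM in overload, whereas the Bayertitan overload libraries, at 8568 to 8752 CPM, all lay above controls of 7638 to 8233 CPM.

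Ctsl and Ctss, which like Ctsk are also cysteine endopeptidases, were not called higher than control with any particle. Ctsl went from 1180 ± 43.1 CPM in G1-1 control to 1045 ± 37.5 CPM in G1-1 overload (SD, n = 3), a fall of 0.18 on the log2 scale (-0.18, SE 0.0598, adjusted p = 0.0278) with no overlap between the groups. The call depended on single libraries: it was lost in 4 of 6 fits that left out 1, namely control replicate 1 or 3 (adjusted p = 0.136 and 0.0534) or overload replicate 1 or 2 (0.0681 and 0.126). It was also lost without the libraries high in Col3a1 (adjusted p = 0.0786). Against G1-1 non-overload, at 1274 ± 72.2 CPM, Ctsl was 0.29 lower (-0.29, SE 0.0599, adjusted p = 0.000641), and this held in all 6 such fits. Ctss read 531 ± 21.8, 575 ± 31.9 and 479.6 ± 41.1 CPM in the 3 G1-1 conditions. Its overload level was 0.26 below non-overload (-0.26, SE 0.0646, adjusted p = 0.00308), and 0.15 below control without passing the test (adjusted p = 0.0895). The 95% interval against control was -0.28 to -0.02, and the overload libraries, at 432 to 505 CPM, all lay below controls of 507 to 549 CPM. Printex90, G3-1 and Bayertitan overload left Ctsl and Ctss within 0.07 of their controls on the log2 scale, with 95% intervals that together ran from -0.19 to 0.20.

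Ctsc, or dipeptidyl peptidase I, which activates granule serine peptidases of myeloid and lymphoid cells, moved against Ctsd. It read 159.8, 138 and 144 CPM in G1-1 control, 144, 158 and 131 CPM in non-overload and 104, 94.4 and 91.4 CPM in overload. Control and non-overload could not be separated, and all 3 overload libraries lay below both. The overload change was -0.61 against control (SE 0.0896, adjusted p = 5.97e-06), a level 0.656 times that of the control, and -0.58 against non-overload (SE 0.0896, adjusted p = 1.55e-05). In the Printex90 libraries Ctsc read 138, 137 and 160.6 CPM in control, 143, 131 and 151 CPM in non-overload and 106, 108 and 122 CPM in overload. The overload change there was -0.38 against control (SE 0.0893, adjusted p = 0.00471) and -0.34 against non-overload (SE 0.0893, adjusted p = 0.0306), with no overlap in either case. The second call was lost without non-overload replicate 1 or 3 (adjusted p = 0.0973 and 0.0884) or overload replicate 1 or 2 (0.191 and 0.121). G3-1 and Bayertitan overload gave -0.07 and -0.11 with overlapping groups (adjusted p = 0.776 and 0.906).

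Ctsh, an aminopeptidase that also occurs in alveolar type II epithelial cells, fell with the same particles and had the smallest SE of the 10 genes. In G1-1 control it read 252, 229 and 242 CPM, in non-overload 251, 259.8 and 245 CPM, and in overload 199, 197 and 204 CPM. Overload was lower by 0.27 than control (-0.27, SE 0.0452, adjusted p = 3.6e-05) and by 0.33 than non-overload (-0.33, SE 0.0452, adjusted p = 2.57e-06). In Printex90 control it read 253, 254 and 267 CPM, in non-overload 255, 233 and 251 CPM, and in overload 207, 216 and 223 CPM, so that overload lay below every other library. The change was -0.26 against control (SE 0.0452, adjusted p = 0.000243) and -0.19 against non-overload (SE 0.0452, adjusted p = 0.014), the latter lost without non-overload replicate 1 (adjusted p = 0.105) or overload replicate 1 (0.124). With G3-1 and Bayertitan the changes were 0.05 and 0.01, with 95% intervals of -0.05 to 0.14 and -0.09 to 0.10.

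Epithelial transcripts were present beside these falls, with ranges that overlapped between control and overload for every particle. The summed level of the 11 epithelial markers, 9 of which passed 1 CPM in some library, was 1587 to 2135 CPM in G1-1 control and 1193 to 1764 CPM in G1-1 overload, and 1108 to 2071 CPM in Printex90 control and 1111 to 1371 CPM in Printex90 overload. It was 1578 to 2218 and 1515 to 2025 CPM in G3-1 control and overload, and 1456 to 1607 and 1412 to 1549 CPM for Bayertitan. Krt7, a keratin, carried the largest part, at 485 to 1062 CPM over all libraries, and its part in the Ctsh and Ctsc results was not tested. Sftpc and Sftpb, the surfactant genes that define type II cells, did not exceed 0.0269 and 0.162 CPM. The neutrophil granule genes Mpo, Elane and Prtn3 did not exceed 0.0884 CPM. Of these, Elane and Prtn3 encode serine peptidases that depend on Ctsc in other cells.

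Ctsz, a carboxypeptidase, and Ctsa, which protects and activates neuraminidase 1, were called higher in the mean over particles, and Ctsz also with G1-1. Ctsz went from 803 ± 25.2 to 964 ± 95.7 CPM with G1-1 overload (SD, n = 3; log2 0.26, SE 0.0824, adjusted p = 0.0158), a call lost without control replicate 2 (adjusted p = 0.0730) or overload replicate 3 (0.114). Printex90, G3-1 and Bayertitan overload gave 0.20, 0.22 and 0.01, and none passed. Ctsa was 0.22 higher with G1-1 overload and missed the threshold (adjusted p = 0.0604), although its overload libraries, at 1344 to 1628 CPM, all lay above controls of 1193 to 1309 CPM. It passed in DESeq2 (adjusted p = 0.0358), with the replicate number as a block (0.0388) and without the libraries high in Col3a1 (0.00551). Lgmn was not called against control for any particle. Its level in G1-1 overload, 1905 ± 133 CPM, was 0.20 below non-overload at 2182 ± 122 CPM (-0.20, SE 0.0695, adjusted p = 0.0412), and the call was lost without non-overload replicate 1 or 2 (adjusted p = 0.103 and 0.197), overload replicate 2 or 3 (0.234 and 0.0544), or the libraries high in Col3a1 (0.0851).

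**Figure D2:**
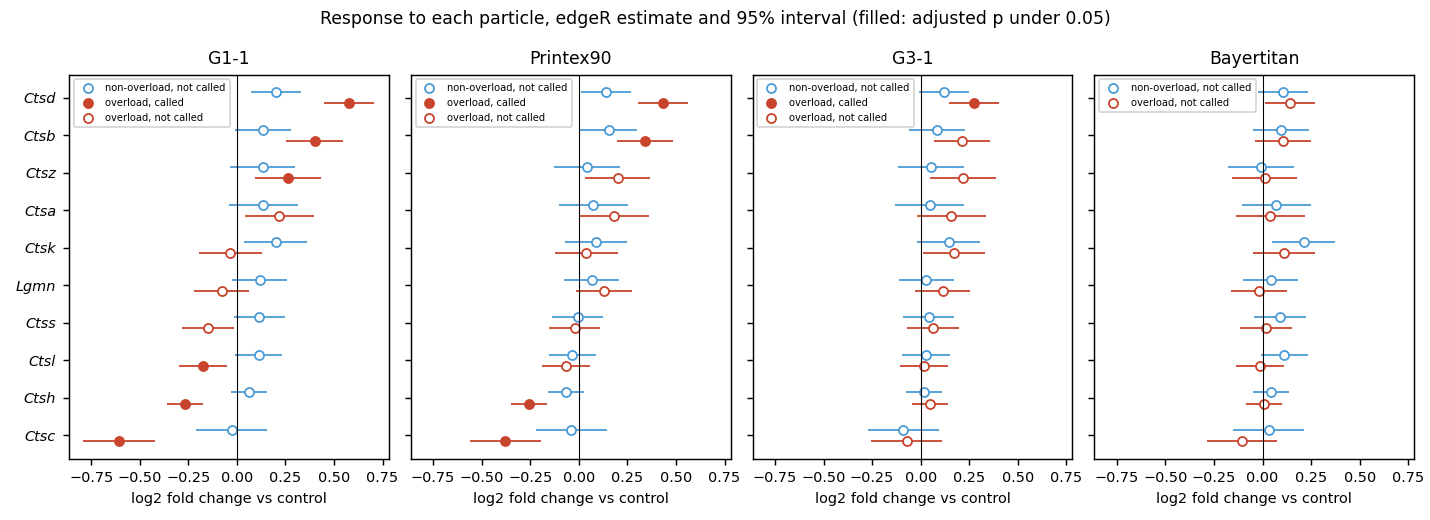
Log2 fold change against the particle's own control (horizontal axis) for each gene, with its 95% interval; filled points passed an adjusted p of 0.05. Ctsd reaches 0.58 for G1-1 and 0.14 for Bayertitan, and Ctsc -0.61 and -0.11, while 0 of the non-overload points are filled.

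Counted by particle, G1-1 overload called 3 members higher and 3 lower, when 28.1% of all genes were called (13.7% higher, 14.4% lower). Printex90 overload called 2 higher and 2 lower, beside 14.8% of all genes (7.45% higher, 7.31% lower). G3-1 overload called 1 higher, beside 0.568% (0.52% higher, 0.0479% lower), and Bayertitan overload called 0, beside 0.329% (0.212% higher, 0.116% lower). Against non-overload, G1-1 overload called 2 higher and 6 lower (22.7% of all genes, 10.3% higher and 12.4% lower), Printex90 overload 1 higher and 2 lower (3.51%, 1.9% higher and 1.62% lower), and G3-1 and Bayertitan overload 0 (0.0274% and 0%). Averaged over particles, overload against non-overload called Ctsd (0.22) and Ctsb (0.15) higher and Ctsc (-0.26), Ctsh (-0.13) and Ctsl (-0.11) lower, beside 15.5% of all genes (7.54% higher, 7.96% lower). Libraries of overload and control did not overlap for 4 members higher and 4 lower with G1-1 (17.7% and 19.9% of all genes), and for 5 higher and 2 lower with Printex90 (17.2% and 14.9%). They did not overlap for 1 higher with G3-1 (6.2%) and 2 higher with Bayertitan (7.91%), and for 0 lower with either (5.45% and 7.76%).

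Whether particles differed was tested on the overload responses themselves, each against its own control. Ctsc, Ctsd and Ctsh responded more to G1-1 than to G3-1, by -0.53 (SE 0.126, adjusted p = 0.00548), 0.30 (SE 0.0887, adjusted p = 0.0277) and -0.31 (SE 0.0638, adjusted p = 0.00137), beside 9.28% of all genes called (3.12% higher, 6.16% lower). The Ctsd difference, at 0.23 to 0.38 with 1 library left out, was lost in 7 of 12 such fits. For G1-1 these left out control replicate 1 (adjusted p = 0.0572), control replicate 2 (0.09997) or overload replicate 3 (0.103). For G3-1 they left out control replicate 1 (0.0501), control replicate 3 (0.0985), overload replicate 1 (0.0847) or overload replicate 2 (0.0694). The Ctsc difference shrank to -0.43 and was lost without the libraries high in Col3a1, which leaves 1 library in each of G3-1 control and overload. Against Bayertitan the same genes differed from G1-1 by -0.50 (SE 0.126, adjusted p = 0.00777), 0.44 (SE 0.0888, adjusted p = 0.00106) and -0.27 (SE 0.0639, adjusted p = 0.00397), beside 12.3% of all genes (5.44% higher, 6.81% lower), and each held in all 12 such fits. In the fit of all libraries, Printex90 was called different in Ctsh alone, from G3-1 by -0.30 (SE 0.0638, adjusted p = 0.0119, 0.644% of all genes called, 0.123% higher and 0.52% lower) and from Bayertitan by -0.26 (SE 0.0638, adjusted p = 0.0321, 1.18%, 0.418% higher and 0.767% lower). Leaving out Printex90 overload replicate 1, G3-1 control replicate 2 or G3-1 overload replicate 3 lost the first of these (adjusted p = 0.0635, 0.0521 and 0.05497). The second was lost in 11 of 12 such fits (adjusted p = 0.0609 to 0.1498) and kept only without Printex90 overload replicate 3. Ctsd, at 0.29 for Printex90 minus Bayertitan (adjusted p = 0.124), was called by DESeq2 (0.0416), with the replicate block (0.0456), with the fibroblast covariate (0.0317) and without the libraries high in Col3a1 (0.0433). No member was called between G1-1 and Printex90, where 11.1% of all genes were (4.44% higher, 6.71% lower), which does not show that the members responded alike. The 95% intervals there ran from -0.49 to 0.03 for Ctsc, from -0.04 to 0.33 for Ctsd and from -0.41 to -0.01 for Lgmn. Lgmn, at -0.21, was the only member whose interval left out 0 (adjusted p = 0.191). G3-1 and Bayertitan gave 0 calls among members and 0% of all genes in edgeR, and 7 genes in DESeq2.

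The levels of 2 genes were also set against each other within a library, where the library's scaling cancels. The Ctsd to Ctsc ratio was 60.0, 65.8 and 68.0 in G1-1 control, 76.2, 71.2 and 79.9 in non-overload and 132.7, 141.8 and 166.9 in overload. Printex90 gave 70.4, 72.4 and 65.0 in control, 76.9, 80.8 and 76.7 in non-overload and 128.7, 124.8 and 111.2 in overload. The 3 conditions did not overlap for either particle. With G3-1 the means were 65.0 ± 2.60, 75.1 ± 3.54 and 82.6 ± 5.00, and with Bayertitan 68.7 ± 6.51, 72.4 ± 5.64 and 81.5 ± 5.05 (SD, n = 3). For both, every overload library was higher than every control library.

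The Ctsd to Lgmn ratio had replicate SDs of 0.0208 to 0.388 around means of 4.63 to 7.44. With G3-1 it was 4.71, 4.75 and 4.66 in control, 4.96, 5.01 and 5.06 in non-overload and 5.28, 5.20 and 5.31 in overload. With Bayertitan it was 4.59, 4.73 and 4.75, then 4.95, 4.95 and 4.80, then 5.26, 5.22 and 5.23. In these particles, where Ctsd alone passed narrowly or not at all, the 3 conditions stood in order without overlap. G1-1 gave means of 4.72 ± 0.0744, 5.00 ± 0.0991 and 7.44 ± 0.388, and Printex90 4.63 ± 0.150, 4.87 ± 0.107 and 5.71 ± 0.141, where one non-overload library lay below the highest control. The pairs of genes were chosen after their values were seen, so no test is given. Over all 9 partners, the overload libraries had a higher Ctsd ratio than every control for 9 with G1-1, 9 with Printex90, 8 with G3-1 and 7 with Bayertitan. Over all other tested genes as partners these shares were 79.9%, 77.2%, 41.2% and 33.9%. The single steps of the order held for fewer partners with G3-1 and Bayertitan. Non-overload libraries had a higher Ctsd ratio than every control for 6 and 2 of the 9 partners (19.6% and 19.2% of all other genes). Overload libraries lay above every non-overload library for 4 and 6 of the 9 (26.3% and 7.72%).

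**Figure D3:**
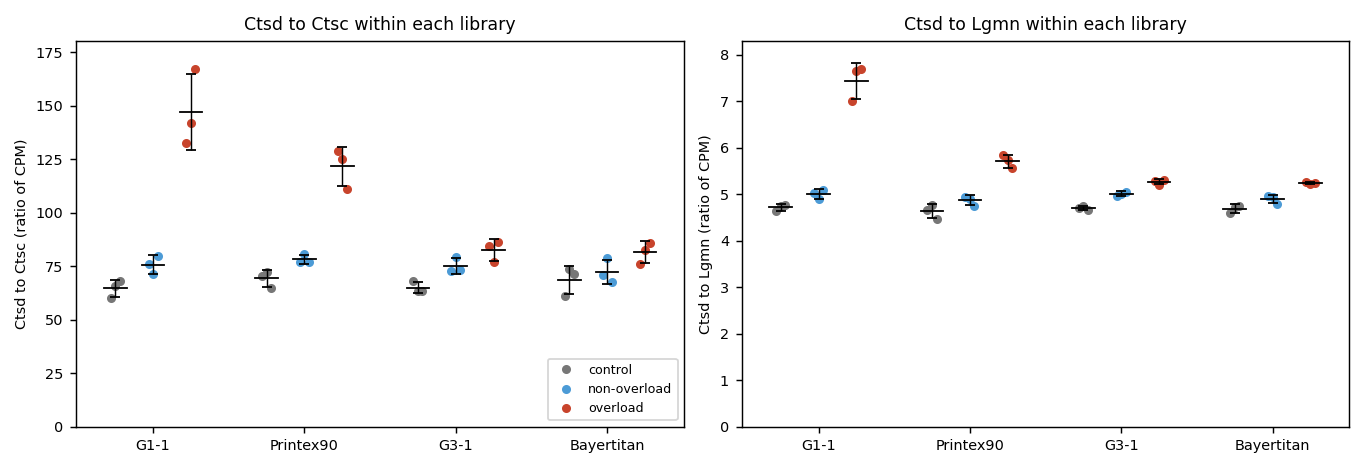
Ratio of CPM of Ctsd to Ctsc (left) and of Ctsd to Lgmn (right) in each library (points), with the mean and SD of each group of 3, by particle and condition; both vertical axes start at 0. Overload lies above control for all 4 particles in both panels, from 81.5 to 147 on the left and from 5.24 to 7.44 on the right in the group means.

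Taken as counts, which are not corrected for gene length, the 10 genes made up 2.54% to 2.69% of all counts in the control groups. They made up 3.17% ± 0.102 in G1-1 overload and 3.13% ± 0.0148 in Printex90 overload (SD, n = 3), against 2.87% ± 0.249 and 2.83% ± 0.0434 in G3-1 and Bayertitan overload. Within these counts the joint share of Ctsd and Ctsb was 68.0% to 68.3% in the control groups. It was 75.4% ± 0.483 in G1-1 overload, 72.6% ± 0.141 in Printex90 overload, 69.9% ± 0.511 in G3-1 overload and 69.6% ± 0.393 in Bayertitan overload. The share of Ctsc ran from 0.263% to 0.622% over the 36 libraries.

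The order of the 12 groups differed between the genes. Ctsd had its lowest group mean in G3-1 control, 9358 CPM, and its highest in G1-1 overload, 14161 CPM, 1.51 times as high, with Printex90 overload next at 13556 ± 138 CPM. Those highest groups did not differ beyond their spread, and neither did the next ones down, G3-1 overload at 11319 ± 1050 CPM and Bayertitan overload at 11076 ± 309 CPM. Ctsc had its lowest mean in G1-1 overload, 96.7 ± 6.80 CPM, then Printex90 overload at 111.9 ± 8.58 CPM, and its highest in Bayertitan non-overload at 149.9 ± 14.9 CPM, 1.55 times as high. The other 10 Ctsc groups lay between 135.5 and 149.9 CPM with SDs of 6.95 to 14.9 CPM, so neighbours among them did not differ beyond their spread. The remaining 8 genes had highest group means 1.24 to 1.37 times their lowest. Across the 12 control libraries, the coefficient of variation was 4.25% for Ctsh to 8.45% for Ctsz.

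Across the 36 libraries, with each particle's mean subtracted, Ctsb varied most closely with Ctsd, and Ctsc against it. Pearson's r was 0.97 for Ctsb with Ctsd, -0.65 for Ctsc with Ctsd, and negative for 11 of the 45 pairs, with a median of 0.46. With each group's mean subtracted instead, so that only replicates of a group were compared, r was positive for all 45 pairs, from 0.36 to 0.96 with a median of 0.82. These values are descriptions: the points share conditions in the first case, and library scaling and the Col3a1 level in both.

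**Figure D4:**
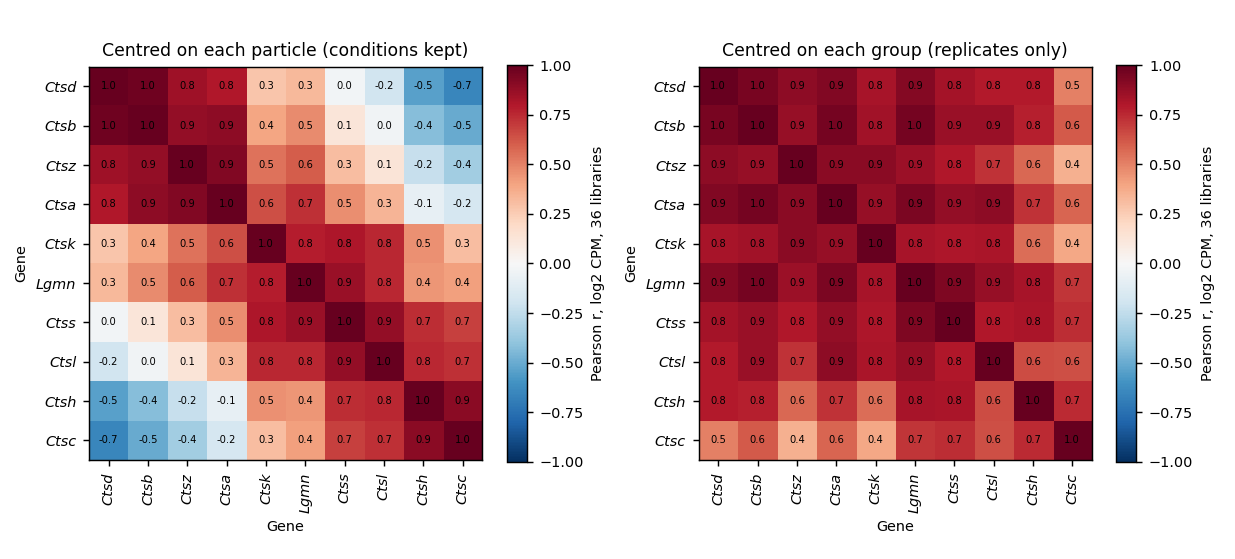
Pearson's r between each pair of the 10 genes over 36 libraries in log2 CPM, after subtracting each particle's mean (left, conditions kept) or each group's mean (right, replicates only). Red is positive and blue negative; Ctsd with Ctsc is -0.65 on the left, and no pair is negative on the right.

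Among 11194 genes with a mean of at least 1 CPM, those most like each member over the 36 libraries, again with particle means subtracted, were taken as the 3 with the highest r. Naglu, a lysosomal enzyme of heparan sulfate breakdown, was closest to Ctsd (r = 0.97), followed by Mfsd11 and Esyt1. Anxa7 was closest to Ctsb (r = 0.98), followed by Ctsd and by Dpp7, a lysosomal dipeptidyl peptidase. Psap, which encodes the saposin precursor, led for Ctsa (r = 0.97) and was also among the 3 for Ctsz (r = 0.93), which Ctsf led. Fcgr1a, the high-affinity Fc receptor for IgG, was closest to both Ctsc (r = 0.93) and Ctsh (r = 0.94). C3ar1, a complement receptor, and Cd244 came next for Ctsc, and Rarres1 and Cfp, or properdin, for Ctsh. The closest genes were Blvra for Lgmn (r = 0.95), Slamf9 for Ctss (0.91), Ctss for Ctsl (0.88) and Acad11 for Ctsk (0.87).

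Genes around these peptidases were taken from lists, and counts are for the mean overload response. In it 31.9% of all genes were called, 14.4% higher and 17.5% lower. Of 12 other cathepsins, 10 were in the table, 2 were expressed enough to test and both rose. Ctsf, a cysteine cathepsin, rose by 0.17 (adjusted p = 0.0014), with a highest library at 250.2 CPM, and Ctse, an aspartic one, rose by 0.32 (adjusted p = 0.00072), at no more than 5.52 CPM. Of 4 tested cystatins, which inhibit cysteine cathepsins, Cstb rose by 0.14 (adjusted p = 0.032) and Cst6 fell by 0.38 (-0.38, adjusted p = 1.13e-05). Cst6 had 21.5 ± 1.64 CPM in G1-1 control and 13.3 ± 0.784 CPM in overload, and 20.8 ± 2.17 and 12.7 ± 0.640 CPM for Printex90 (SD, n = 3). The changes were -0.69 (adjusted p = 3.79e-05) and -0.72 (adjusted p = 0.000109). With G3-1 and Bayertitan Cst6 was at -0.15 and 0.04 and was not called (adjusted p = 0.615 and 0.997). The median over the 4 cystatins was 0.04.

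Of 7 other lysosomal peptidases, 4 rose and 0 fell, with a median of 0.09: Dpp7 by 0.28, the tripeptidyl peptidase Tpp1 by 0.18, and Napsa and Scpep1 by 0.09 each. Among 9 genes of sorting to the lysosome, 3 rose and 0 fell (median 0.06), beside 14.4% of all genes higher and 17.5% lower. These were the adaptor Gga1 by 0.25 and the mannose 6-phosphate receptors Igf2r by 0.23 and M6pr by 0.07 (adjusted p = 7.48e-07, 3.5e-07 and 0.0241). Neu1, the neuraminidase held in a complex by cathepsin A, rose by 0.20 (adjusted p = 0.000175), and the other gene of that complex on the list did not pass. Among the MiT/TFE transcription factors Tfeb rose by 0.24 (adjusted p = 1.15e-05), Mitf and Tfec fell (-0.14 and -0.25, adjusted p = 0.00192 and 0.000346), and 1 of the 4 did not pass.

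MHC class II processing genes fell in 8 of 9 cases, with a median of -0.51, among them Cd74, the invariant chain itself, at -0.65 (adjusted p = 7.26e-11). The fall came from G1-1, with 8 of 9 called lower (median -0.72), and Printex90, with 7 of 9 (median -1.51). Of all genes, 14.4% were called lower with G1-1 overload and 7.31% with Printex90 overload. G3-1 and Bayertitan called 0, with medians of -0.07 and 0.19 and with 7 of 9 positive for Bayertitan. Their overload called 0.568% and 0.329% of all genes. The class II genes RT1-Db1, RT1-Bb and RT1-Da followed at -0.64, -0.62 and -0.56. Single values of these genes are uncertain where near-identical copies share reads. With Printex90 overload Cd74 changed by -1.62 (adjusted p = 2.31e-12) and with G1-1 by -1.01 (adjusted p = 3.38e-09), and it was at -0.10 with G3-1 and 0.15 with Bayertitan (adjusted p = 0.683 and 0.820). Ctss, which cuts the invariant chain, was at -0.02 with Printex90 and -0.15 with G1-1 and was not called in either. With G1-1 its overload libraries nevertheless all lay below every control library. Of 9 tested genes linked to osteoclasts, which share Ctsk, 4 rose and 0 fell (median 0.14): Acp5 by 0.22, Mmp9 and Oscar by 0.21 each and Atp6v0d2 by 0.14. Acp5, Atp6v0d2 and Oscar were also called higher in the mean non-overload response, at 0.14, 0.17 and 0.16 (adjusted p = 0.0114, 0.00325 and 0.0303), as Ctsk was. In that response 3 of these 9 genes were called higher, 0 were called lower and 6 were not called. Of all genes, 3.29% were called higher and 1.64% lower.

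**Figure D5:**
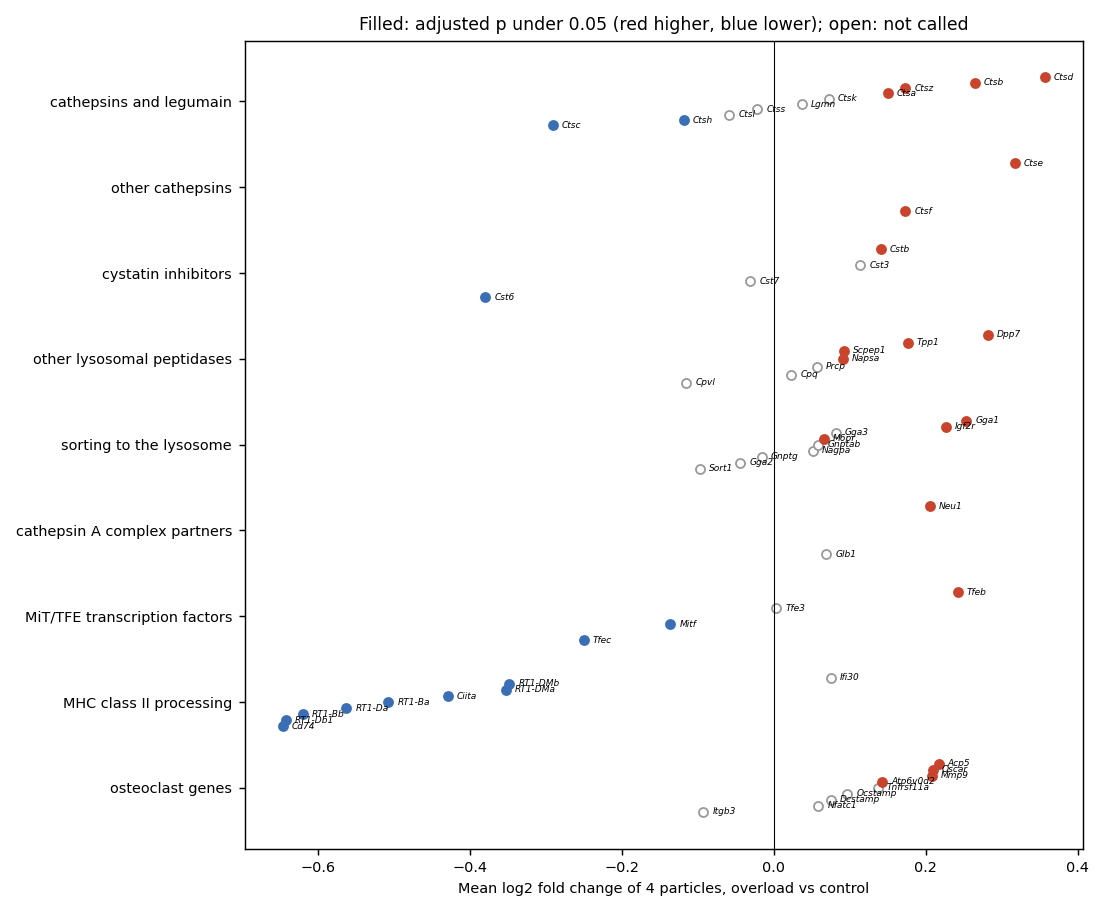
Mean log2 fold change of the 4 particles, overload against control (horizontal axis), for the 10 genes and the tested members of 8 related lists (rows). Filled red points were called higher and filled blue points lower at an adjusted p under 0.05; the class II row reaches -0.65 (Cd74) and the cathepsin row 0.36 (Ctsd).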

How the data were processed

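RNA was measured in 36 samples, placed in 12 groups of 3 by their titles. Per the labels' protocols, library preparation depleted ribosomal RNA and started from 150 ng of RNA. The authors deposited expected counts per gene symbol. The submitters' processing notes name Salmon, the build Rnor_6.0, MultiQC and FastQC; their versions, settings, the annotation and use of strand are not given in the sources used. Columns were matched to samples by their description labels, in which control columns carry CT in place of CTL, and 0 columns were left unused.

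The counts, of which 30.5% had decimals, were rounded. edgeR 4.0.16 in R 4.3.3 was run with TMM scaling, filterByExpr (minimum count 10, minimum total 15) and quasi-likelihood models in which the 36 libraries shared 1 fit, each group had its own coefficient, and 24 degrees of freedom remained. In 21 comparisons, p-values were Benjamini-Hochberg adjusted over 14606 genes and called under 0.05. SE is the size of the log2 fold change divided by the square root of F. Total counts were 26096983 to 43205421 per library, 3287 genes had no count, and the common biological coefficient of variation was 0.103. Chi-square values for the 36 replicate pairs, divided by their degrees of freedom, were 3.71 to 35.4; all libraries were kept as separate. Over all genes the median log2 fold change stayed within 0.02 of 0. The fit was tested on simulated counts in which all genes shared the same spread, so power for the members was not measured.

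All 10 members could be named; other genes only from 8 related lists, at most the 4 called with the smallest p (any, where 5 or fewer were called), or as the 3 highest Pearson r with a member. Genes named as markers come from 11 marker lists. The members and lists were chosen with earlier results of these data known.

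Alternatives were DESeq2 1.42.0, DESeq2-type size factors, no low-count filter, only 1 particle's libraries, the replicate number as a block, a fibroblast marker covariate, leaving out the 8 libraries high in Col3a1, and leaving out each library. Deviations of same-numbered samples from their group means correlated over 0.1 in every replicate only between Printex90 control and non-overload (0.21, 0.43 and 0.43). There the block changed no call of a member. Between G3-1 control and overload the correlations were 0.22, 0.0993 and 0.54. Promoters came from RefSeq's GRCr8 tables, which differ in build from the counts.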

Additional observations from a re-analysis of the deposited data

Results flagged for a closer look

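Ctsc, Ctsd and Ctsh responded differently to overload depending on the particle, by the test of the difference between 2 responses in edgeR's quasi-likelihood fit. G1-1 minus G3-1 was -0.53 on the log2 scale for Ctsc, 0.30 for Ctsd and -0.31 for Ctsh. G1-1 minus Bayertitan was -0.50 for Ctsc, 0.44 for Ctsd and -0.27 for Ctsh. For Ctsh, Printex90 minus G3-1 was -0.30 and Printex90 minus Bayertitan was -0.26. The differences share libraries, since each G1-1 or Printex90 response enters more than 1 of them. In all 8 the G1-1 or Printex90 response was the larger in size. With 1 library left out, the Ctsh difference of Printex90 minus Bayertitan was lost in 11 of 12 fits. The Ctsd difference of G1-1 minus G3-1 was lost in 7 of 12, and the Ctsh difference of Printex90 minus G3-1 in 3 of 12. The rest held in all 12. Without the libraries high in Col3a1, which left 1 library in each of G3-1 control and overload, Ctsc for G1-1 minus G3-1 was -0.43.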

How the results depend on the processing

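No called member reversed direction in these fits; uncalled members near 0, such as Ctsk with G1-1 overload (-0.03, and 0.04 without the libraries high in Col3a1), did change sign. Of single member calls, 494 passed and 46 did not pass with 1 library left out, and 263 passed and 17 did not under the other alternatives; the cause was not tested. With 1 library left out, members called ranged as follows against control under overload: 5 to 6 for G1-1, 4 to 5 for Printex90, 0 to 1 for G3-1 and 0 to 0 for Bayertitan; under non-overload, 0 to 0 for each particle. Overload against non-overload gave 6 to 7 for G1-1, 1 to 3 for Printex90 and 0 to 0 for the others. Means over particles gave 6 to 6 (overload), 2 to 3 (non-overload) and 5 to 6 (one against the other). Differences gave 0 to 0 for G1-1 minus Printex90 and G3-1 minus Bayertitan, 2 to 3 for G1-1 minus G3-1, 3 to 4 for G1-1 minus Bayertitan, and 0 to 1 for Printex90 minus either. Without a low-count filter, with only that particle's libraries or without the libraries high in Col3a1, G3-1 overload called 0 members against control, not 1. With only that particle's libraries, Printex90 overload against non-overload called 1, not 3. Leaving out the libraries high in Col3a1 left 1 library in each of G3-1 control and G3-1 overload. Every count for that fit that uses these groups, of members or of all genes, therefore takes its spread from other groups. With the fibroblast covariate or without the Col3a1 libraries, G1-1 non-overload called 1 (Ctsd), not 0, G3-1 overload against non-overload called 4 and 2, not 0, and G1-1 minus Bayertitan 5 each, not 3. With the covariate the mean overload against non-overload called 8, not 5, and G1-1 minus Printex90 called 1 (Ctsd, 0.23), not 0. Without the Col3a1 libraries Printex90 minus G3-1 called 0, not 1. Printex90 minus Bayertitan called 2 rather than 1 by DESeq2, with the covariate and without the Col3a1 libraries, and 0 without a filter. The replicate block also gave 2 there, adding Ctsd (0.29, adjusted p = 0.0456). It added Ctsa to the G1-1 overload calls, and Ctsb to the mean non-overload, Ctsz to the mean overload against non-overload, and Ctsb to the G1-1 minus Bayertitan calls. Over all genes, Printex90 overload against control called 2155 genes, 1373 with only its libraries and 997 to 2861 with 1 library left out. G3-1 overload called 83, 210 by DESeq2, 153 with the covariate, 1 with only its libraries, 0 without the Col3a1 libraries and 26 to 233 with 1 library left out. Bayertitan overload called 48, 127 by DESeq2, 75 with the block, 86 without the Col3a1 libraries and 3 to 19 with 1 library left out. Non-overload called 67, 30, 0 and 49 for G1-1, Printex90, G3-1 and Bayertitan, 184, 56, 13 and 181 by DESeq2, 251, 61, 1 and 99 with the covariate, and 0, 5, 1 and 36 with only that particle's libraries. With 1 library left out they called 3 to 36, 9 to 27, 0 to 0 and 1 to 21. Without the Col3a1 libraries Printex90 non-overload called 11 and Bayertitan 90, and Bayertitan called 23 without a filter and 98 with the block. Overload against non-overload called 513 for Printex90 (186 with only its libraries, 268 without the Col3a1 libraries, 158 to 614 with 1 library left out) and 4 for G3-1 (730 with the covariate, 318 without the Col3a1 libraries). G1-1 minus G3-1 called 1355, and 787 without the Col3a1 libraries. Printex90 minus G3-1 called 94, and 178 by DESeq2, 185 with the covariate and 48 without the Col3a1 libraries. Printex90 minus Bayertitan called 173, and 263 by DESeq2 and 93 to 317 with 1 library left out. G3-1 minus Bayertitan called 0, and 7 by DESeq2.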

Other observations

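The ratio of Ctsk to Ctsl, both cysteine endopeptidases, had a higher group mean in non-overload and in overload than in control for all 4 particles; for Printex90 the overload libraries overlapped the controls. From control to non-overload to overload its means were 1.56 ± 0.0227, 1.66 ± 0.0303 and 1.72 ± 0.112 for G1-1, 1.54 ± 0.0356, 1.68 ± 0.0771 and 1.66 ± 0.127 for Printex90, 1.45 ± 0.0162, 1.58 ± 0.0249 and 1.62 ± 0.0187 for G3-1, and 1.61 ± 0.0975, 1.73 ± 0.0280 and 1.76 ± 0.0546 for Bayertitan (SD, n = 3). The ratio of Ctsb to Ctsd moved the other way with overload, from 0.817 ± 0.00271 to 0.722 ± 0.0151 for G1-1 and from 0.804 ± 0.0206 to 0.753 ± 0.00335 for Printex90. Both pairs were chosen after their values were seen, and neither was tested.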
